A study of Mus musculus with 53 samples.

Results

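Transcripts of 9 genes that encode transcription factors of intestinal identity were followed across all 53 libraries of the series: Cdx1, Cdx2, Hnf4a, Hnf4g, Gata4, Gata6, Klf4, Klf5 and Sox2. They were found by matching these symbols to the Ensembl identifiers of the count table, which gave 9 of 55421 identifiers. The 9 were named by symbol and not picked by a rule on their values, but with earlier results of these data known. The study sequenced RNA of whole intestinal tissue from mice of 11 groups, and asked how early lesions and tumours of the proximal colon compare with tumours driven by loss of Apc. Each member is given here in every group, each mutant group against its own WT, and the difference between normal proximal colon and normal small intestine (SI) serves as a scale.

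Mice of every group, WT included, carried the VilCreER+ transgene, a tamoxifen-inducible recombinase driven by the villin promoter, and received tamoxifen at an age of 6 to 12 weeks, so alleles were recombined in epithelium while RNA came from all cells of the tissue. The BA groups were VilCreER+ BrafV600E/+ Alk5fl/fl, with an activated Braf allele and deletion of Tgfbr1, the gene for the TGFβ receptor ALK5, and comprised primary tumours of the proximal colon (n = 4), proximal colon at day 30 (d30, n = 5) and d30 proximal colon of mice given antibiotics (n = 5). The antibiotic mice drank ampicillin, neomycin trisulphate and metronidazole at 1 g/L each and vancomycin at 500 mg/L from the day after tamoxifen. The A groups were VilCreER+ Alk5fl/fl at d30, untreated (n = 4) or given sulindac, a non-steroidal anti-inflammatory drug, at 0.4 g/L for 14 days (n = 4). WT proximal colon was taken at d30 (n = 4) and without a stated day (n = 3). In the SI, Apcfl/fl tissue (n = 10) and WT tissue (n = 6) were taken at day 4 (d4), and Apcfl/+ tumours (n = 5) were set against WT SI without a stated day (n = 3). The last 2 groups were labelled Inbred C57BL6/J N9 and all others Mixed C57BL/6J N6. Males and females were used, each library is a separate mouse, and no label gives the sex of single mice or a sequencing batch.

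CDX1 and CDX2 are caudal-type homeobox factors that set intestinal against gastric fate, and loss of CDX2 lets foregut genes be expressed in the gut. HNF4A and HNF4G are nuclear receptors that drive enterocyte and lipid-handling genes, GATA4 and GATA6 are zinc finger factors of which GATA4 is known for its restriction to the proximal SI, and KLF4 and KLF5 are Krüppel-like factors that act in differentiated cells and in dividing crypt cells, respectively. SOX2 is the foregut and stomach counterpart, which the CDX factors hold off in the gut.

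The RefSeq promoters of Cdx2 and Hnf4a are shown because Cdx2 had the lowest log2 difference of the members in BA tumours (without tumour 2, Hnf4g and Cdx1 were lower), and because the counts of Hnf4a sum transcripts from 2 start sites. Each runs from 250 bases before to 50 bases after a start on GRCm38.p6, 5′ to 3′ on the gene's strand, with the letters searched for CDX (TTTAT or TTTAC) or GATA factors (AGATAA or TGATAA), on either strand, in capitals.
Cdx2, chr5:147307200-147307499, minus strand: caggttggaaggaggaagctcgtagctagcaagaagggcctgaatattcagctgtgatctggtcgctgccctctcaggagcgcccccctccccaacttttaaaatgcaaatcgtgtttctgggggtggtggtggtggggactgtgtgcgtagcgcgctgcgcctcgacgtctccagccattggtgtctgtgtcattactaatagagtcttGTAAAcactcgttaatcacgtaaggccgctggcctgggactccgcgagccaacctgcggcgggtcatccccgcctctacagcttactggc
Hnf4a, upstream start, chr2:163506607-163506906, plus strand: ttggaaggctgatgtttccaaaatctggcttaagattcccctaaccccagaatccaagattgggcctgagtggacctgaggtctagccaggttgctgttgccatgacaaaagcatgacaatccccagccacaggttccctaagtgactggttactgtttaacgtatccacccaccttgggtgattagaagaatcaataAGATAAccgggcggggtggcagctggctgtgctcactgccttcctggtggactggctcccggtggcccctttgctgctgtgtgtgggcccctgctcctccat
Hnf4a, downstream start, chr2:163546905-163547204, plus strand: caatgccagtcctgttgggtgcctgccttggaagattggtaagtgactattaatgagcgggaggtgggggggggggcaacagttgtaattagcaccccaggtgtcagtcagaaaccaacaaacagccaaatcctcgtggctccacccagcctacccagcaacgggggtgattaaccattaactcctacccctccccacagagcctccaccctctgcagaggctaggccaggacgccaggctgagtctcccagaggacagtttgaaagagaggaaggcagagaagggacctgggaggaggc
The Cdx2 window holds 1 CDX match, 40 bases before the start, on the strand opposite to the gene and so printed as its complement GTAAA. The upstream Hnf4a window holds 1 GATA match, 52 bases before the start, and the downstream window has neither. CDX letters occur in 54.7% and GATA letters in 18.6% of 32851 promoters of this length, so such matches are common, and they describe letters only.

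On GRCm38 the members are Cdx1 (ENSMUSG00000024619, chromosome 18, 61018862 to 61036199, minus strand), Cdx2 (ENSMUSG00000029646, chromosome 5, 147300805 to 147307270, minus), Hnf4a (ENSMUSG00000017950, chromosome 2, 163506808 to 163572910, plus), Hnf4g (ENSMUSG00000017688, chromosome 3, 3508030 to 3658052, plus), Gata4 (ENSMUSG00000021944, chromosome 14, 63198922 to 63271692, minus), Gata6 (ENSMUSG00000005836, chromosome 18, 11052064 to 11085635, plus), Klf4 (ENSMUSG00000003032, chromosome 4, 55527143 to 55532466, minus), Klf5 (ENSMUSG00000005148, chromosome 14, 99298691 to 99315036, plus) and Sox2 (ENSMUSG00000074637, chromosome 3, 34650405 to 34652461, plus). All are protein coding, and at most 1.28% of the 36-base words of a member's exons occur in other genes. Gata6 shares 93 exon bases, 1.429% of its exon length, with 1010001N08Rik on the opposite strand, and the strand setting of the counts is not given in the sources used here.

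Library totals ran from 516985 to 32824795 reads on genes, and a floor of 3 counts lay between 0.138 and 0.192 CPM, reads per 1e6 reads on genes, at the groups' median totals. Floors cover counting error only. Gene counts do not tell recombined from intact alleles, so Tgfbr1, Braf and Apc levels do not check the genotypes: Tgfbr1 had medians of 52.1 CPM in d30 BA and 52.5 CPM in d30 WT. Values below are normalised CPM, that is CPM after TMM scaling, which sets the bulk of genes level between libraries. The library labelled Apcfl/+ tumour 2 held 0.475 CPM of Gata4, 6.61 CPM of the SI apolipoprotein gene Apoa1 and 247 CPM of Hoxb13, against 72.2 to 88.6, 967 to 2595 and at most 0.928 CPM in the other 4 tumours. It also held 171 CPM of Car1, a carbonic anhydrase gene of colonic epithelium, against 0.0709 to 0.603 CPM in the others. Its SI label is thus not borne out by regional genes, although Notum, a Wnt target, was high in it as in the other tumours (138 against 178 to 244 CPM). The library labelled BA tumour 2 carried SI transcripts (Gata4 14.2, Apoa1 362, Lct 160 CPM) beside the colonic Car1 (998 CPM). These regional genes other than Gata4 were chosen after their values were seen. Results that rest on either library are given with and without it. Reads of Gm13394, a pseudogene, split the libraries at 10 CPM into sets that do not follow the labels at d4 (over 10 CPM in 6 of 10 Apcfl/fl and 3 of 6 WT), but follow genotype at d30, where all BA and A libraries and 0 of 4 WT libraries were over 10 CPM. What separates these sets is not given by the labels, and at d30 it cannot be told apart from genotype against WT. BA and A libraries share it. Over 10 CPM were also 3 of 4 BA tumours (tumour 2 was under) and 0 of 3 WT proximal colon libraries, and 0 of 5 Apcfl/+ tumours and 3 of 3 WT SI libraries. It cannot be told apart from group in the Apcfl/+ comparison or between the undated WT tissues. Within d30 BA, Gm13394 was at 185, 222 and 186.5 CPM in libraries 1, 2 and 4 and at 93.3 and 106 CPM in 3 and 5. With antibiotics it was at 170 and 168 CPM in libraries 1 and 2 and at 75.4 to 82.9 CPM in 3 to 5. Y-linked reads were over 10 CPM in 3 of 4 BA tumours and 0 of 3 WT proximal colon libraries. The part of any of these splits in the members' differences was not tested beyond the fits named with them.

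**Figure D1:**
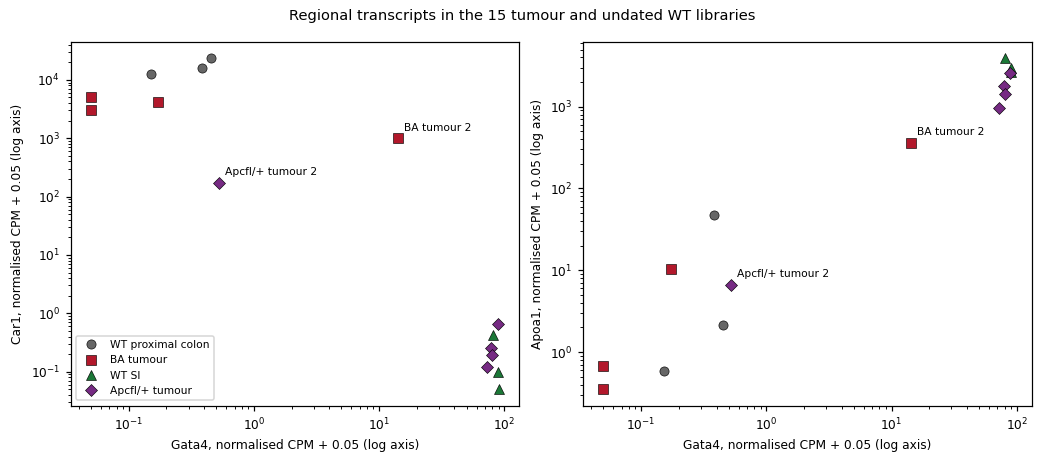
Gata4 against Car1 (left) and Apoa1 (right) in the tumours and their WT tissue, as normalised CPM plus 0.05 on log axes, 1 point per library. Apcfl/+ tumour 2 (Gata4 0.475 CPM, Car1 171 CPM) lies apart from the other SI libraries, and BA tumour 2 (Gata4 14.2 CPM) lies between the colon and SI libraries in Gata4 and Apoa1.

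Normal colon and normal SI differed in 6 of the 8 members with enough reads to test. Differences were tested with the quasi-likelihood test of edgeR on 2 groups at a time, with p-values adjusted over all genes tested and a threshold of 0.05, and are given as log2 differences with their standard error (SE). Between WT proximal colon and WT SI, 57.5% of all genes passed, 29.9% higher and 27.6% lower in colon, so the members' 6 calls are near the background share. Higher in colon were Cdx1 (log2 difference 2.22, SE 0.15, adjusted p = 3.36e-05), Cdx2 (2.20, SE 0.13, adjusted p = 2.55e-05) and Klf4 (1.30, SE 0.18, adjusted p = 0.000751). Lower were Gata4 (-8.40, SE 0.32, adjusted p = 5e-06), Hnf4g (-3.66, SE 0.20, adjusted p = 1.81e-05) and Gata6 (-1.05, SE 0.15, adjusted p = 0.000853). The groups of these 6 did not overlap, which was not counted over all genes and is not read as a result. No separation of groups given below was counted over all genes either. Hnf4a (0.12, adjusted p = 0.61) and Klf5 (0.13, adjusted p = 0.593) did not pass. These WT groups also differ in strain background and in Y-linked reads, neither of which can be told apart from tissue. Y-linked reads were over 10 CPM in 0 of 3 WT proximal colon and 3 of 3 WT SI libraries. No term for them was fitted in this comparison. Between d30 WT colon and WT d4 SI, which share a background label but not the day, the same 6 were called in the same directions (Cdx1 0.92, Cdx2 0.66, Klf4 1.44, Hnf4g -3.32, Gata6 -1.89, Gata4 -12.05), where 51.8% of all genes passed.

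Per kilobase of exon, the scale on which members can be ranked against each other, d30 WT colon ran from Klf4 (mean 195 CPM per kb), Hnf4a (186), Cdx2 (161) and Cdx1 (148) through Klf5 (60.9) to Hnf4g (11.3) and Gata6 (5.37), with Gata4 (0.00978) and Sox2 (0.0809) near zero. WT d4 SI ran from Hnf4a (167 CPM per kb), Hnf4g (114) and Cdx2 (103) through Cdx1 (78.6), Klf4 (72.4), Klf5 (52.4) and Gata4 (49.4) to Gata6 (19.96) and Sox2 (0.0379). Klf4, Hnf4a, Cdx2, Cdx1 and Klf5 were thus at 49.4 CPM per kb or more in both groups, and Hnf4g and Gata4 in the SI group alone of these 2.

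**Figure D2:**
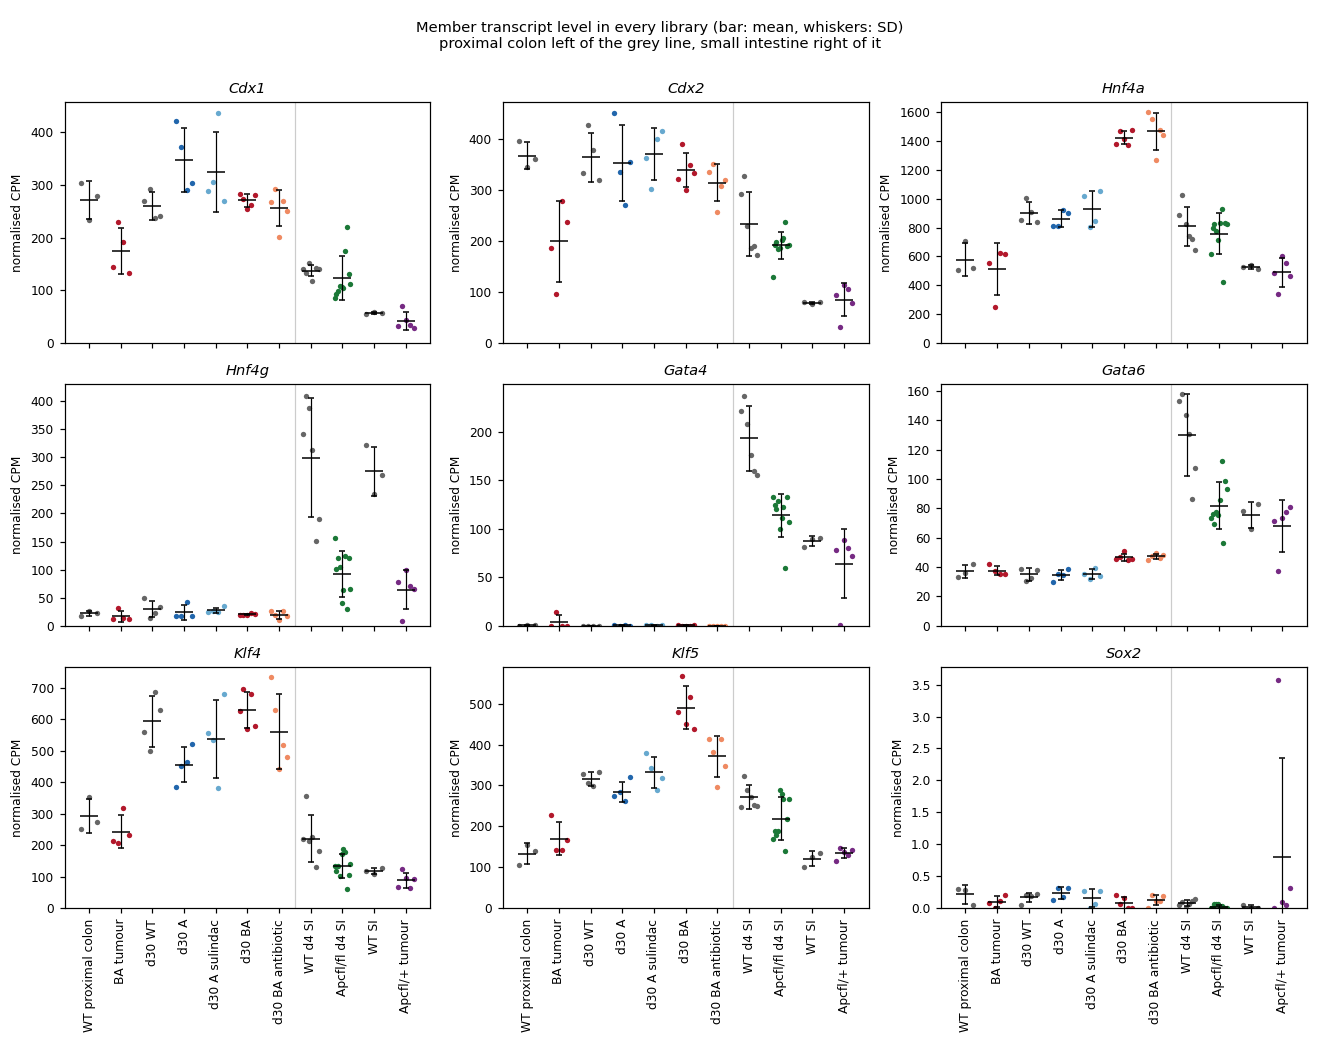
Normalised CPM of each member in all 53 libraries by group, on linear axes from 0, with 1 point per library and the group mean ± SD, proximal colon groups left of the grey line and SI groups right of it. Hnf4a in both BA groups at d30 (1270.0 to 1602 CPM) and Klf5 in untreated d30 BA (437 to 567 CPM) stand above every library of the other groups.

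Cdx1 and Cdx2 did not differ detectably from WT under TMM scaling in BA colon at d30 or, with all tumours included, in BA tumours. In d30 WT colon, Cdx1 was at 270, 291, 236 and 241 CPM, in d30 BA at 282, 273, 254.5, 261 and 280.0 CPM and in BA with antibiotics at 266, 292, 201, 269 and 249.5 CPM. Cdx2 was at 334, 427, 378 and 321 CPM in d30 WT, at 322, 391, 301, 350 and 333 CPM in d30 BA and between 256 and 351 CPM with antibiotics. The groups overlapped, and in d30 BA against WT the log2 difference was 0.08 for Cdx1 (95% interval -0.08 to 0.25, adjusted p = 0.366) and -0.08 for Cdx2 (-0.30 to 0.15, adjusted p = 0.544). With antibiotics they were 0.00 (adjusted p = 0.98) and -0.19 (adjusted p = 0.207). In d30 A, Cdx1 was at 421, 371, 291 and 303 CPM, a log2 difference of 0.44 from WT that did not pass (SE 0.15, adjusted p = 0.48). Cdx1 was lower in BA than in A (-0.32, SE 0.11, adjusted p = 0.0402), a call kept in 2 of 9 fits with 1 library left out, those without A library 3 or 4.

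In BA tumours Cdx1 was at 144, 230, 191 and 133 CPM and in WT proximal colon at 303, 233 and 278 CPM. Cdx2 was at 187, 95.6, 278 and 237 CPM in the tumours and 396, 346 and 361 CPM in WT. Every tumour lay below every WT colon for both genes, which was not counted over all genes and is not read as a result. The log2 differences of -0.60 (SE 0.26, adjusted p = 0.169) and -0.87 (SE 0.33, adjusted p = 0.117) did not pass. Without BA tumour 2, Cdx1 fell by 0.81 on the log2 scale (SE 0.21, adjusted p = 0.0299) and Cdx2 had a log2 difference of -0.66 (SE 0.21, adjusted p = 0.0581). The tumours' Cdx1 effect was 0.70 log2 below that in d30 BA (SE 0.23, adjusted p = 0.0466), a difference of effects that was called in 2 of 16 fits with 1 library left out (without BA tumour 2 or d30 WT 2) and turned to 0.42 (adjusted p = 0.247) when scaled to epithelial transcripts.

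In the SI at d4, Cdx1 ran from 118 through a median of 140 to 151.5 CPM in WT and from 85.5 through 107 to 220 CPM in Apcfl/fl, and Cdx2 from 174 through 210 to 327 CPM in WT and from 131 through 192 to 237 CPM in Apcfl/fl. The ranges overlapped, and neither passed (-0.16, adjusted p = 0.512, and -0.28, adjusted p = 0.0834). In Apcfl/+ tumours Cdx1 was at 32.6, 70.7, 43.3, 34.2 and 29.1 CPM against 55.7, 59.9 and 56.5 CPM in WT SI, and only tumour 2 was above WT. The log2 difference of Cdx1 was -0.55 (SE 0.27, adjusted p = 0.109), and without tumour 2 it was -0.83 (SE 0.13, adjusted p = 0.00058). Cdx2 was at 94.5, 31.5, 114, 107 and 79.6 CPM against 79.8, 76.8 and 81.2 CPM, a log2 difference of 0.00 with all tumours and 0.21 without tumour 2 (adjusted p = 0.135).

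Under TMM scaling, Hnf4a was higher in both BA groups at d30 than in any other group, a direction against WT that turned when libraries were scaled to epithelial transcripts, and Hnf4g was lower in both Apc models. Hnf4a was at 850, 1005, 904 and 836 CPM in d30 WT, at 1381, 1470.0, 1411, 1374 and 1472 CPM in d30 BA and at 1602, 1552, 1270.0, 1474 and 1438 CPM in BA with antibiotics. Every BA library lay above the highest value of the other 43 libraries, 1056 CPM. The log2 difference from WT was 0.69 in d30 BA (SE 0.07, 1.61-fold, adjusted p = 1.93e-05) and 0.73 with antibiotics (SE 0.09, adjusted p = 0.00015), comparisons that share the WT libraries. BA was also above A (0.76, SE 0.10, adjusted p = 0.000144), in which Hnf4a was at 814, 812, 922 and 900.0 CPM. In BA tumours Hnf4a was at 552, 247, 625.1 and 620 CPM, where tumour 2 was the low one, and in WT colon at 505, 707 and 521 CPM, and did not pass (-0.17, 95% interval -0.96 to 0.63, adjusted p = 0.803). In the SI it overlapped at d4 (641, median 784 and 1026 CPM in WT, 424, 810 and 929 CPM in Apcfl/fl, log2 difference -0.11, adjusted p = 0.452) and in Apcfl/+ tumours (483, 342, 602, 556 and 461 CPM against 525.7, 542 and 510.0 CPM, -0.21, adjusted p = 0.339).

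Hnf4g, the HNF4 paralog with the SI bias, was at 150, a median of 328 and 410 CPM in WT d4 SI and at 29.2, 103 and 156 CPM in Apcfl/fl. It fell by 1.71 on the log2 scale (SE 0.31, 3.27-fold, adjusted p = 0.00019), which was 46.7% of the normal SI to colon difference, and the highest Apcfl/fl library just reached the lowest WT one. In WT SI Hnf4g was at 321, 236 and 269 CPM and in Apcfl/+ tumours at 78.3, 7.65, 98.5, 71.1 and 66.2 CPM, all below WT. The log2 difference was -2.20 (SE 0.58, adjusted p = 0.01), and -1.91 without tumour 2 (SE 0.16, adjusted p = 1.84e-05). With a term for Y-linked reads, which were over 10 CPM in 1 of 5 tumours and 3 of 3 WT libraries, it was -2.01 and not called (adjusted p = 0.175). In colon Hnf4g was low and variable, at 48.8, 14.2, 22.6 and 33.1 CPM in d30 WT and 19.2, 19.2, 19.5, 22.4 and 20.6 CPM in d30 BA (-0.52, SE 0.26, adjusted p = 0.111), but -0.75 without WT library 2 (adjusted p = 0.00752). BA tumours held 11.3, 31.8, 12.8 and 12.4 CPM against 18.1, 26.2 and 22.0 CPM in WT colon, where tumour 2 was the high one. The log2 difference of Hnf4g there was -0.34 with all tumours (adjusted p = 0.628) and -0.87 without tumour 2 (SE 0.20, adjusted p = 0.0205).

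Gata4 was an SI transcript, and Gata6 rose in d30 BA colon under TMM scaling, though not when scaled to epithelial transcripts, and fell in Apcfl/fl SI under both. Gata4 was at 156, a median of 192 and 237 CPM in WT d4 SI and between 0 and 0.639 CPM in every d30 colon library. Summed over d30 WT colon it had 3 counts, 0.0389 CPM, which puts WT d4 SI at 4514 times that level with a 95% counting interval of 1545 to 21890.0. Over WT proximal colon it had 17 counts, and the ratio was 714 (446 to 1225), outside that interval. Of the colon groups so compared, d30 A with sulindac gave the lowest ratio, 606. In Apcfl/fl SI at d4 Gata4 was at 58.9, a median of 121 and 132 CPM, below every WT library, and fell by 0.78 on the log2 scale (SE 0.14, 1.72-fold, adjusted p = 0.000161), which was 9.31% of the tissue difference. In Apcfl/+ tumours it was at 78.5, 0.475, 88.6, 80.0 and 72.2 CPM against 81.1, 89.5 and 90.7 CPM in WT SI. With all tumours the log2 difference was -0.55 (SE 0.92, adjusted p = 0.618), and without tumour 2 it was -0.23 (SE 0.09, adjusted p = 0.0424). Gata4 had too few reads to be tested within colon, where BA tumours held 0, 14.2, 0 and 0.122 CPM.

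Gata6 was at 38.9, 30.09, 32.7 and 38.2 CPM in d30 WT, at 45.4, 47.0, 50.7, 44.7 and 45.1 CPM in d30 BA and between 45.0 and 49.4 CPM with antibiotics. Both BA groups lay above all other colon libraries, and Gata6 rose by 0.44 log2 in d30 BA (SE 0.08, 1.36-fold, adjusted p = 0.000884) and by 0.46 with antibiotics (SE 0.09, adjusted p = 0.00181). BA exceeded A by 0.47 (SE 0.09, adjusted p = 0.00212), and A was at 29.9, 35.2, 34.3 and 38.7 CPM. BA tumours, at 41.7, 37.2, 35.1 and 35.4 CPM, overlapped WT colon at 33.3, 35.5 and 42.0 CPM (0.04, 95% interval -0.35 to 0.43, adjusted p = 0.913). In the SI, Gata6 was at 86.3, a median of 137 and 158 CPM in WT at d4 and at 56.1, 76.9 and 112 CPM in Apcfl/fl, a fall by 0.69 log2 (SE 0.12, adjusted p = 0.000196). Apcfl/+ tumours held 71.6, 36.9, 73.4, 77.8 and 80.9 CPM of Gata6 against 78.4, 65.8 and 82.9 CPM in WT SI, and the low value was tumour 2 (-0.26, adjusted p = 0.346).

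Klf5 was highest in untreated d30 BA colon under TMM scaling and below WT there when scaled to epithelial transcripts, while Klf4 did not pass against WT in any colon comparison under TMM scaling. Klf5 was at 329, 306, 298 and 332 CPM in d30 WT and at 479, 567, 451, 515 and 437 CPM in d30 BA, above every other library of the series, and rose by 0.66 log2 (SE 0.08, 1.58-fold, adjusted p = 6.76e-05). With antibiotics it was at 414, 382, 297, 414 and 348 CPM, lower than in untreated BA by 0.41 (SE 0.10, adjusted p = 0.0175) with no overlap. Libraries with the higher Gm13394 level, 1, 2 and 4 of untreated BA and 1 and 2 with antibiotics, were not balanced between these groups. The part of this in the Klf5 difference was not tested. Klf5 was the 1 member of 7 called between those groups, where 13.0% of all genes passed and 8.5% were lower, and the other 6 had log2 differences from -0.18 to 0.03. Against WT, Klf5 with antibiotics had a log2 difference of 0.26 that edgeR did not call (adjusted p = 0.0507) and DESeq2 called (adjusted p = 0.0374), and without antibiotic library 3 it was 0.32 (adjusted p = 0.00645). In A, Klf5 was at 273, 283, 262 and 319 CPM, below BA (0.82, SE 0.11, adjusted p = 0.000158). In BA tumours it was at 229, 141, 143 and 166 CPM against 105, 155 and 139 CPM in WT colon, which overlapped (0.37, adjusted p = 0.368). In the SI, Klf5 ran from 248 through a median of 263 to 324 CPM in WT at d4 and from 140 through 203 to 289 CPM in Apcfl/fl, and fell by 0.35 log2 (SE 0.12, adjusted p = 0.0233). It did not pass in Apcfl/+ tumours, at 115.5, 147, 136, 130 and 142 CPM against 99.8, 126 and 135 CPM (0.05, adjusted p = 0.737).

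Klf4 was at 561, 499.8, 687 and 629 CPM in d30 WT, at 628, 696, 568.5, 680 and 579 CPM in d30 BA and at 733, 630, 441, 518 and 481 CPM with antibiotics. These groups overlapped (BA against WT 0.11, 95% interval -0.11 to 0.33, adjusted p = 0.36). A was at 386, 452, 463 and 522 CPM, a log2 difference of -0.36 from WT that did not pass (SE 0.14, adjusted p = 0.487), and BA exceeded A by 0.51 (SE 0.12, adjusted p = 0.00464). BA tumours were at 212, 207.5, 318 and 232 CPM of Klf4 and WT colon at 250, 354 and 273 CPM (-0.25, adjusted p = 0.565). Klf4 was at 130, a median of 215 and 355 CPM in WT SI at d4 and at 61.9, 134 and 186 CPM in Apcfl/fl, and fell by 0.75 log2 (SE 0.19, adjusted p = 0.00345). In Apcfl/+ tumours it was at 66.96, 123, 94.7, 65.2 and 93.3 CPM against 116, 107.5 and 128 CPM, where tumour 2 lay within the WT range and the other 4 below it. Its log2 difference was -0.50 with all tumours (adjusted p = 0.0658) and -0.65 without tumour 2 (SE 0.16, adjusted p = 0.00558).

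Sox2 stayed at or under 0.319 CPM in 52 of 53 libraries and was tested in no comparison. The exception was the library labelled Apcfl/+ tumour 2, at 3.56 CPM from 75 counts. Sox2 was thus near or under the floor of 3 counts in WT and mutant colon alike, and the depth does not allow a comparison of those groups.

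Among the comparisons with a mutant group, members called ran from 5 in Apcfl/fl SI and in BA against A to 0 in both A groups, between them and in BA tumours. In d30 BA 3 of 7 tested members rose and 0 fell, where 55.1% of all genes passed and 25.8% were higher. With antibiotics 2 of 7 rose (background 39.6%, 21.8% higher). Between BA and A, 4 rose and 1 fell (background 45.3%, 21.7% higher and 23.6% lower). In A against WT edgeR called 0 of 7 members, with 2 at an unadjusted p under 0.05 and 0 by DESeq2 (background 0.141%), and in A with sulindac 0 of 7, with 0 at an unadjusted p under 0.05 and 0 by DESeq2 (background 0.0507%). Sulindac against untreated A gave 0 of 7 by edgeR, 0 at an unadjusted p under 0.05 and 0 by DESeq2, where edgeR called 0.0% of all genes, with 460 genes at an unadjusted p under 0.05 and 5 called by DESeq2. In BA tumours edgeR called 0 of 7, with 2 at an unadjusted p under 0.05 and 0 by DESeq2 (background 13.2%), and without tumour 2 it called 2 lower, Cdx1 and Hnf4g (background 9.61% lower). In Apcfl/fl SI 5 of 8 fell (background 54.2%, 26.7% lower) and in Apcfl/+ tumours 1 of 8 was called, Hnf4g, which fell (background 61.5%, with 6189 of 20567 genes lower), or 4 of 8 lower without tumour 2 (background 35.3% lower).

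**Figure D3:**
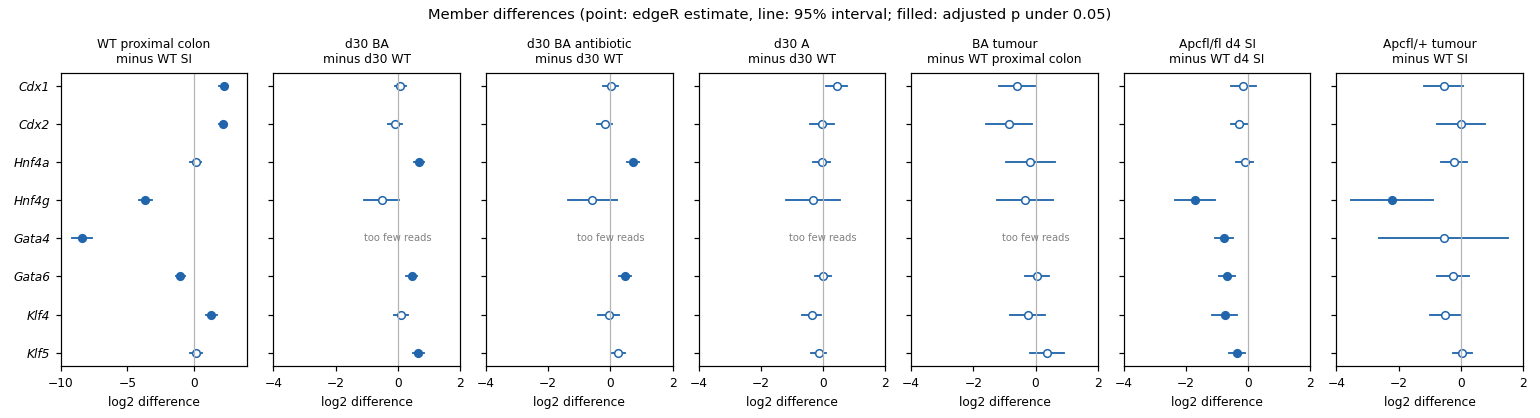
Log2 differences of 8 members in 7 comparisons with 95% intervals, filled where the adjusted p is under 0.05, under TMM scaling, with a wider axis in the first panel. Hnf4a, Klf5 and Gata6 rise in d30 BA on this scaling but are lower when scaled to epithelial transcripts, as are 7 of 10 pan-epithelial genes. Hnf4g falls in both Apc models.

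The rise in d30 BA depended on what the libraries were scaled to. In whole tissue, fewer cells of a type and less RNA per cell cannot be told apart, and the level of pan-epithelial genes differed between d30 BA and WT. Whether the epithelial share of the RNA changed, or these genes within the epithelium, was not tested. All 10 of 10 pan-epithelial genes were higher in d30 BA (median log2 difference 0.72, from Spint2 at 0.30 to Krt18, a keratin of simple epithelia, at 2.72), and their summed level was 18740.0 to 21890.0 CPM against 9670.0 to 11340.0 CPM in WT. Of 8 smooth muscle genes 6 were lower (median -0.99), with summed levels of 1003 to 4153 CPM against 5302 to 6149 CPM, and 6 of 8 fibroblast genes were lower (median -0.40), while 1 of 7 immune genes was lower. The part of these shifts in the members' differences was not tested, but the members were also set against the summed pan-epithelial counts. On that scale all 7 members were lower in d30 BA than in WT, as were 88.8% of all genes: Hnf4a by -0.34, Klf5 by -0.38, Gata6 by -0.60, Klf4 by -0.93, Cdx1 by -0.95, Cdx2 by -1.10 and Hnf4g by -1.59. On it the pan-epithelial genes themselves had a median of -0.32, with 3 of 10 higher and 7 lower, and Hnf4a and Klf5 lay near that median. The order of the members was kept, with Hnf4a and Klf5 at the top and Hnf4g at the bottom, as a common scaling factor must. With antibiotics all 7 were lower on this scale (background 84.0% lower), and against A 5 of 7 were lower (79.7% lower), Hnf4a (-0.21) and Klf5 (-0.15) not being called. The scaling put the median of all genes in d30 BA at -1.06 log2. Hnf4a, Klf5, Gata6, Klf4 and Cdx1 lay above that median and Cdx2 and Hnf4g below it, which restates their order under TMM scaling.

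**Figure D4:**
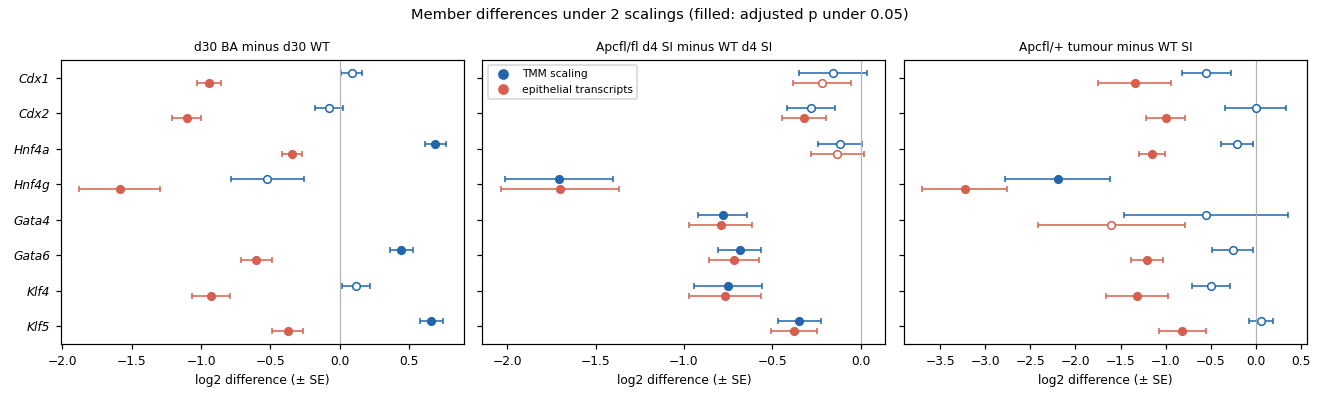
Log2 differences of the members ± SE in 3 comparisons under TMM scaling (blue) and scaled to the summed pan-epithelial counts (red). In d30 BA the 3 members that are higher under TMM (Hnf4a 0.69, Klf5 0.66, Gata6 0.44) are lower on the epithelial scale (-0.34, -0.38 and -0.60). So are 88.8% of all genes and 7 of the 10 pan-epithelial genes.

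The same scaling changed little at d4 and much in Apcfl/+ tumours. In Apcfl/fl SI the pan-epithelial genes had a median of -0.04, and on the epithelial scale Hnf4g (-1.70), Gata4 (-0.79), Klf4 (-0.77), Gata6 (-0.72), Klf5 (-0.38) and also Cdx2 (-0.32, adjusted p = 0.0379) were lower, where 27.9% of all genes were lower. In Apcfl/+ tumours 8 of 10 pan-epithelial genes were higher, 7 of 8 fibroblast genes were higher and 4 of 8 smooth muscle genes were lower, and on the epithelial scale 7 of 8 members were lower (background 57.7% lower), Gata4 being the exception. Between normal colon and SI the scale also mattered, since 9 of 10 pan-epithelial genes were higher in colon: Hnf4a (-1.17) and Klf5 (-1.18) were then lower in colon, Klf4 was at 0.01 and not called, and Cdx1 (0.92) and Cdx2 (0.90) stayed higher (background 75.4% called).

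In the d4 SI, Hnf4g and Gata4 were called lower in both library sets, and whether the effects differed between the sets was not tested. Among libraries with Gm13394 over 10 CPM (6 Apcfl/fl and 3 WT), Hnf4g fell by 1.68 (adjusted p = 0.0143) and Gata4 by 0.76 (adjusted p = 0.0175), and the other 6 members were not called. Among those under 10 CPM (4 and 3), 7 of 8 members were lower, Hnf4g at -1.60, Gata6 at -0.96, Klf4 at -1.02, Gata4 at -0.74, Cdx2 at -0.57, Klf5 at -0.56 and Cdx1 at -0.46, all but Hnf4a (-0.18). The Apcfl/fl mean was below the WT mean in both sets also for Gata6 (74.2 against 151.5 CPM under, 86.9 against 108 CPM over) and Klf4 (122 against 262 CPM under, 140 against 179.5 CPM over). The same held for Klf5 (181.5 against 287 CPM under, 243 against 258 CPM over). WT libraries themselves differed between the sets, with Gata4 at 208 to 237 CPM in those under and 156 to 176 CPM in those over 10 CPM, and Hnf4g at 342 to 410 and 150 to 313.5 CPM. Apcfl/fl library 1, with 516985 reads, and library 8, the lowest for Gata4, Hnf4a, Hnf4g, Gata6, Klf4 and Klf5, were left out in a further fit, after which Klf5 was not called (-0.24) and Cdx2 was (-0.27, adjusted p = 0.038). Without library 8 alone, Cdx1 (-0.33, adjusted p = 0.0135) and Cdx2 (-0.35, adjusted p = 0.00913) were called too, and without WT library 2 Klf5 was not (-0.32, adjusted p = 0.0557).

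**Figure D5:**
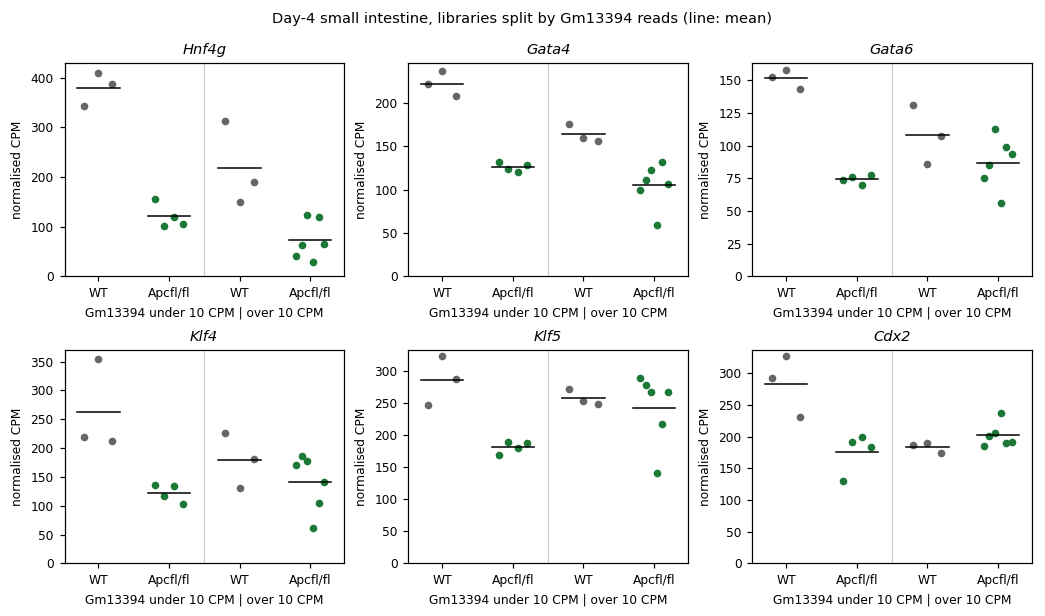
Normalised CPM of 6 members in d4 SI libraries, split by Gm13394 under or over 10 CPM, with 1 point per library and lines at the means. Hnf4g and Gata4 are called lower in Apcfl/fl than in WT within both sets, and the means of Gata6, Klf4 and Klf5 are lower in both as well.

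Whether effects differed between models was tested as a difference of effects. Between BA tumours and Apcfl/+ tumours, each against its WT, edgeR called 0 of 8 members, with 1 at an unadjusted p under 0.05 (Hnf4g, 1.88, SE 0.78, adjusted p = 0.0661), and DESeq2 called 1, where 39.7% of all genes passed. With tumour 2 of each group left out, the BA effect was lower for Cdx2 (-0.92, adjusted p = 0.0037) and Gata4 (-2.17, adjusted p = 0.0317) and higher for Hnf4g (1.00, adjusted p = 0.004), where 53.1% of all genes passed. The Gata4 value rests on colon libraries near the floor. Between BA tumours and d30 BA, Cdx1 was the 1 of 7 members called (background 16.3%, 6.46% lower), and with tumour 2 left out Cdx1 (-0.82, adjusted p = 0.00236) and Hnf4a (-0.58, adjusted p = 0.0351) were called (with 11.0% of all genes lower). Under TMM scaling Hnf4a was thus above WT at d30 and near WT in tumours, by different WT libraries and with the day of the tumours not stated. Scaled to epithelial transcripts, Hnf4a was below WT at d30 (-0.34) and not called in tumours (-0.16, adjusted p = 0.835 by edgeR). Between Apcfl/+ tumours and Apcfl/fl SI edgeR called 0 of 8, with 0 at an unadjusted p under 0.05 and 0 by DESeq2 (background 24.7%).

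Known intestinal targets of CDX and HNF4 factors fell in both Apc models and were mixed in BA colon. In Apcfl/fl SI 17 of 18 were lower and 0 higher (median -1.04 against 0.00 for all genes, of which 26.7% were lower), from Sis, the sucrase-isomaltase gene, at -2.57 (adjusted p = 3.74e-06) to Guca2a at -0.10 (adjusted p = 0.815). Apoa1 (-1.71) and Mttp (-1.66), which serve lipid export, and Lct (-2.09), the lactase gene, were among them. In Apcfl/+ tumours 11 of 18 were lower and 0 higher (median -1.44 against 0.03 for all genes, of which 6189 of 20567 were lower), with Lct at -4.06. Without tumour 2, 15 of 18 were lower (35.3% of all genes), and on the epithelial scale 17 of 18 (57.7% of all genes). In d30 BA 8 of 16 were higher and 3 lower (median 0.70, with 25.8% of all genes higher and 5118 of 17471 lower). Among them were Apoa1 (3.61), Apob (1.55) and the cadherin gene Cdh17 (1.06) higher and Mttp (-0.67), Mep1a (-0.44) and Gucy2c (-0.24) lower. Apoa1 was low there, at 2.52 to 14.5 CPM in d30 BA and 0.268 to 0.758 CPM in d30 WT. In untreated d30 A it ran from 0.21 to 184.5 CPM, and its log2 difference in BA against A was -3.25 (adjusted p = 0.0516). On the epithelial scale 2 of these 16 were higher and 9 lower, where 88.8% of all genes were lower. In BA tumours 2 of 17 were lower and 0 higher, Guca2a (-2.19, adjusted p = 0.00439) and Fabp2 (-1.69, adjusted p = 0.0206), where 1096 of 19188 genes were lower, or 4 without tumour 2 (9.61% of all genes).

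Other endodermal transcription factors moved in both directions. In d30 BA 6 of 17 were higher and 2 lower, where 25.8% of all genes were higher and 5118 of 17471 lower. The pancreatic and duodenal factor Pdx1 (3.67), Creb3l3 (2.59), Prdm1 (1.16), Foxa3 (0.71), Tcf7l2 (0.61) and Klf3 (0.46) were higher, and Nr5a2 (-0.72) was among the lower ones. Pdx1 was at 0.93 to 2.36 CPM in d30 BA and at 0 to 0.316 CPM in d30 WT, near the floor. It was thus tested through the BA libraries, and its call is not read as a result. On the epithelial scale 2 were higher and 13 lower, where 440 of 17471 genes were higher and 88.8% lower. In BA tumours 3 of 17 were higher and 0 lower (1431 of 19188 genes higher), Pdx1 (2.71), Creb3l3 (2.06) and Prdm1 (1.56). Pdx1 was there at 0.69 to 2.82 CPM against 0.115 to 0.524 CPM in WT colon, and is likewise not read as a result. In Apcfl/fl SI 4 of 17 were higher, Ehf (1.83), Foxa1 (1.74), Foxa3 (1.58) and Foxa2 (1.27), and 8 lower, among them Creb3l3 (-1.63) and Maf (-1.46), where 4816 of 17536 genes were higher and 4688 lower. In Apcfl/+ tumours 7 were higher and 4 lower, with Pdx1 at 5.02 and Maf at -2.76, where 6461 of 20567 genes were higher and 6189 lower. Pdx1 was at 0.283 to 0.439 CPM in WT SI, so it too was tested through the tumours. Without tumour 2, 7 were higher and 7 lower, where 35.3% of all genes were lower. On the epithelial scale 5 were higher and 8 lower, where 1158 of 20567 genes were higher and 57.7% lower.

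Foregut and gastric genes stood high in Apcfl/+ tumours and low in most other libraries. The 10 genes of that list summed to 770, 42.6, 634, 1164 and 1315 CPM in tumours 1 to 5 against 5.42 to 7.07 CPM in WT SI. Tumour 2, the library with Sox2 reads, was the lowest. Of the 10 genes, 9 had enough reads to be tested. Several were at or near 0 in WT SI and so were tested only through the tumours, and the number that passed is not read as a result. Sox21, a relative of Sox2, was at 8.90 to 28.4 CPM in the tumours and at 0 in all 3 WT SI libraries. In WT proximal colon Sox21 was at 1.21 to 3.91 CPM. The gastric mucin gene Muc6 was at 11.9 to 585 CPM in the tumours against 3.91 to 5.02 CPM in WT SI. In d4 SI the summed level overlapped, at 0.661, a median of 2.31 and 9.04 CPM in WT and 2.47, 4.76 and 269 CPM in Apcfl/fl, the highest value being library 5. Anxa10 was there at 0 to 0.486 CPM in WT and 0 to 58.95 CPM in Apcfl/fl. Muc6 was at 0.22 to 1.54 CPM in WT and 0 to 0.51 CPM in Apcfl/fl other than library 5, which held 37.8 CPM. In BA tumours the 10 genes summed to 8.45 to 18.6 CPM against 2.59 to 5.81 CPM in WT proximal colon. Anxa10 was there at 4.21, 11.9, 4.37 and 2.27 CPM against at most 0.0575 CPM in WT colon. In d30 BA Tff2 had the largest log2 difference of 3 tested genes, 1.58 (adjusted p = 0.137).

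Across the 53 libraries, which share tissue and genotype in blocks, the genes with the most similar log2 CPM pattern were described by Pearson's r among 10577 genes. For Gata4 they were Mttp (0.98), Slc26a6 (0.98) and Fabp1 (0.98), and for Hnf4g Slc5a1 (0.95), Nat8f4 (0.94) and Sec14l2 (0.94). Gata6 was most like Acsl5 (0.95) and Slc16a6 (0.93). For Cdx1 they were Eif4ebp3 (0.90), Tmem246 (0.89) and Serhl (0.89), and for Cdx2 Tmem246 (0.91) and Snx15 (0.90). Hnf4a was most like B3gnt3 (0.92), Gpa33 (0.92) and Klhl18 (0.92), Klf4 like Ceacam1 (0.94), Lhfpl2 (0.94) and Clmn (0.94), and Klf5 like Nus1 (0.94), Taf4 (0.94) and Tmc4 (0.94). Sox2 reached 0.65 at most. Among the members, Gata4 with Gata6 (0.88), Hnf4g with Gata4 (0.86) and with Gata6 (0.86), Hnf4a with Klf5 (0.86) and Cdx1 with Cdx2 (0.84) were the most alike, and Gata4 with Klf4 (-0.80) the least.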

How the data were processed

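RNA-seq of whole tissue from 53 mice in 11 groups was analysed. The authors checked reads with FastQC 0.11.8, trimmed them with Trim Galore 0.6.4, aligned them to GRCm38 with HISAT2 2.1.0 and counted them on genes with featureCounts 1.6.4, per the submitters' processing notes, and deposited raw counts as 1 table. The strand setting and the handling of multi-mapped reads are not given in the sources used here. Of 55421 identifiers, 55154 matched a symbol and 267 did not. The members, gene lists and tests were chosen with earlier results of these data known.

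Groups follow the labels. In R 4.3.3 with edgeR 4.0.16, each of 11 comparisons was fitted to its own 2 groups by quasi-likelihood after filterByExpr and TMM, and 3 differences of effects were fitted as interaction terms. Tests were two-sided, adjusted by Benjamini-Hochberg over all genes tested, with a threshold of 0.05. Totals ran from 516985 to 32824795 reads, and low transcripts were read against a floor of 3 counts. Each fit was repeated with RLE scaling, with DESeq2 1.42.0, without a low-count filter, with library sizes from the summed counts of 10 pan-epithelial genes, with the replicate number as a block and with each library left out (98 and 55 fits), and some with all 5 d30 groups or a term for Y-linked reads. Fits split by Gm13394 reads, without Apcfl/fl libraries 1 and 8, and without tumour 2 of each group together with other settings were chosen after seeing the data.

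The text names all 9 members, the extremes of each gene list in a comparison with up to 5 more of its genes, and for each member the 3 genes with the highest Pearson's r of log2 CPM (prior count 2, mean log2 CPM of at least 3), except genes that are not reported here. Regional genes other than these serve as library checks and were chosen after their values were seen. Promoters are those of RefSeq on GRCm38.p6, in which Cdx2, Hnf4a, Klf4 and Sox2 matched by symbol. Equal replicate numbers did not pair samples (44 pairs, r from -0.408 to 0.179), and no libraries were duplicates (lowest chi-square per gene 4.18 over 120 pairs). On simulated counts with 200 genes shifted by 2 on the log2 scale, edgeR recovered 62% for BA tumours (19188 genes) and 96% for d30 BA (17471 genes). Of the genes it called there, 8.82% and 3.52% were not shifted. The highest such share was 9.71%, for WT proximal colon against WT SI. Python 3.11.15, pandas 2.3.3, scipy 1.17.1 and matplotlib 3.10.9 were also used.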

Additional observations from a re-analysis of the deposited data

Results flagged for a closer look

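In 10 of 81 groups of 4 to 10 libraries, over the 9 members, the highest or lowest library stood far from the rest by Dixon's 95% limit, where chance gives about 1 in 20. The library labelled Apcfl/+ tumour 2 held 0.475 CPM of Gata4 (others 72.2 to 88.6 CPM), 36.9 CPM of Gata6 (others 71.6 to 80.9 CPM) and 3.56 CPM of Sox2 (others 0 to 0.319 CPM). The library labelled BA tumour 2 held 14.2 CPM of Gata4 (others 0 to 0.122 CPM) and 31.8 CPM of Hnf4g (others 11.3 to 12.8 CPM). Among Apcfl/fl d4 libraries, library 8 held 58.9 CPM of Gata4 (others 100 to 132 CPM) and library 1, the one with the fewest reads, 131 CPM of Cdx2 (others 184 to 237 CPM). In d30 A, library 3 held 42.6 CPM of Hnf4g (others 16.9 to 17.7 CPM). The last 2 were values at a few counts, Gata4 at 0.639 CPM in d30 A with sulindac library 2 (others 0.126 to 0.164 CPM) and Sox2 at 0.0527 CPM in d30 WT library 1 (others 0.19 to 0.214 CPM).

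The Cdx1 effect in BA tumours minus that in d30 BA was -0.70 log2 by the interaction term of edgeR (adjusted p = 0.0466). This difference was called in 2 of 16 fits with 1 library left out. It was not called with the replicate block or without a low-count filter, and its direction turned when scaled to epithelial transcripts. The stages were set against different WT libraries.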

How the results depend on the processing

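Over single members and all settings other than leaving out a library, 590 results kept direction and side of the threshold, 47 gained a call, 12 lost one and 31 reversed, and with a library left out 1102 kept both, 15 gained a call, 22 lost one and 1 reversed. Where not named, the cause of a change was not tested. Scaled to epithelial transcripts, members called went to 7 in d30 BA, 7 with antibiotics, 7 in Apcfl/+ tumours (8 with tumour 2 also left out), and for the differences of effects to 4 (BA against Apcfl/+ tumours), 3 (BA tumours against d30 BA) and 4 (Apcfl/+ tumours against Apcfl/fl SI), or 6, 3 and 6 with tumour 2 left out. Reversed under it were Cdx1 -0.95, Hnf4a -0.34, Gata6 -0.60, Klf4 -0.93 and Klf5 -0.38 in d30 BA; Cdx1 -1.05, Hnf4a -0.31, Gata6 -0.58 and Klf5 -0.80 with antibiotics; Hnf4a -0.21, Gata6 -0.52, Klf4 -0.48 and Klf5 -0.15 in BA against A; Klf5 -0.81 in Apcfl/+ tumours (-1.03 without tumour 2); and Hnf4a -1.17 and Klf5 -1.18 in WT colon against SI. Among differences of effects the reversed values were Cdx1 0.42, Gata6 0.74, Klf4 0.70 and Klf5 0.85 (BA tumours against d30 BA; 0.13, 0.65, 0.68 and 0.87 without tumour 2), Cdx2 -0.68 (Apcfl/+ tumours against Apcfl/fl SI; Cdx2 -0.53, Klf4 -0.91 and Klf5 -0.65 without tumour 2) and Cdx1 1.07 (BA against Apcfl/+ tumours, without both tumours 2). With both tumours 2 left out but TMM scaling, Gata4 reversed to -2.17 in that contrast, and 3 members were called there and 2 in BA tumours against d30 BA. With a library left out, Hnf4g in BA against A ran from -0.32 to 0.31, the last without A library 3. DESeq2 called 3, 1 and 3 members in Apcfl/+ tumours and the first and the second of these differences of effects. Without a low-count filter BA tumours against d30 BA gave 0 and Apcfl/+ tumours against Apcfl/fl SI gave 1. A term for Y-linked reads gave 0 in Apcfl/+ tumours, and d4 libraries over 10 CPM of Gm13394 alone gave 2, with fewer samples. With each library left out in turn, members called ran from 0 to 2 in BA tumours, 1 to 4 in Apcfl/+ tumours, 0 to 2 in BA against Apcfl/+ tumours and 0 to 2 in BA tumours against d30 BA. Replicate numbers did not pair the samples; with the replicate block 100 member results were unchanged in call, 1 was stronger and 2 weaker, and BA tumours against d30 BA gave 0. Over all genes, calls in BA tumours went from 2527 to 3798 (DESeq2), 1440 (epithelial scaling), 931 (replicate block), 80 (Y-linked term) and 696 to 3641 (a library left out). For d30 BA they went from 9634 to 15951 and with antibiotics from 6966 to 15147 under epithelial scaling, and in BA against A from 7761 to 14015. For A they went from 25 to 136 (DESeq2), 72 (no filter) and 15 to 28 (a library left out), and for A with sulindac from 9 to 111 (DESeq2), 24 (no filter), 2 (block), 29 (5 groups), 14 (epithelial scaling) and 4 to 18. For antibiotics against BA they went from 2172 to 730 (epithelial scaling), 1284 (block), 1074 (5 groups) and 1300 to 2683, for sulindac against A from 0 to 5 (DESeq2), 1 (no filter), 6 (epithelial scaling) and 1 (block), for Apcfl/fl SI from 9504 to 5490 (Gm13394 over 10 CPM) and for Apcfl/+ tumours from 12650 to 8333 (block) and 7320 (Y-linked term). The differences of effects went from 8596 to 2915, 3371 to 1749 and 5486 to 3375 (block), and those against d30 BA and against Apcfl/fl SI to 11694 and 10012 (epithelial scaling), or 11587 and 12276 with tumour 2 also left out, and with a library left out they ran from 2225 to 5051 and from 3603 to 7295. Epithelial scaling put the median of all genes at -1.06 (d30 BA), -1.02 (antibiotics), -1.01 (BA against A), -0.86 (Apcfl/+ tumours) and -1.25 (WT colon against SI). Depth limits Gata4 in colon and Sox2 in all but 1 library, and groups of 3 or 4 limit the tumour comparisons.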

Other observations

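Transcripts of SI enterocytes were found in some d30 A colon libraries, and Hnf4g did not follow them throughout. A libraries 1 and 3 held 184.5 and 63.7 CPM of Apoa1 and 38.4 and 21.5 CPM of Mttp, against 0.439 and 0.21 CPM of Apoa1 and 3.45 and 3.4 CPM of Mttp in libraries 2 and 4. Hnf4g was at 42.6 CPM in A library 3 and at 16.9 CPM in library 1, and Gata4 was at 0.456 and 0.288 CPM in libraries 1 and 3. WT proximal colon library 3 likewise held 46.8 CPM of Apoa1, against 0.542 and 2.07 CPM in the other 2.

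Pdx1 in Apcfl/+ tumours spread widely, at 3.40, 0.713, 2.04, 18.2 and 36.02 CPM in tumours 1 to 5, against 0.283 to 0.439 CPM in WT SI, while Gata4 in the same libraries other than tumour 2 stayed between 72.2 and 88.6 CPM.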
